A study of Homo sapiens with 30 samples.

Results

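The comparison described here set the abundance of guide RNAs (gRNAs) in spheroids of PLC/PRF/5 cells at the end of a pooled CRISPR-Cas9 knockout (KO) screen against that in monolayers of the same line at the end of the screen. It covered all 737 genes of the screened library, so no gene was selected by its value. PLC/PRF/5 is an established human hepatocellular carcinoma line with integrated copies of the hepatitis B virus genome. It used 6 of the 30 libraries of the series, namely 3 libraries labelled 3D Final and 3 labelled 2D Final.

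The gRNA library was aimed at regulators of chromatin and held non-targeting gRNAs as controls, and the same screen was run in HLF, a poorly differentiated hepatocellular carcinoma line. Monolayers (2D) grew on tissue culture plastic, and spheroids (3D) grew in medium with 0.75% methylcellulose on plates that cells do not attach to. Both PLC/PRF/5 groups carried the library and Cas9 and were grown in RPMI medium with fetal calf serum. The labels gave day 28 for the 2D Final libraries and no day for the 3D Final ones, and gave no drug treatment for either group, although the names of the 2D Final libraries include DMSO. They did not say whether the 3 libraries of a group came from separate cultures, so the spread behind each test may be technical. The column names of the 2D and 3D comparisons ended in different number tags in PLC/PRF/5 and in the same tag in HLF. If the tags name sequencing or screen runs, run and culture cannot be told apart in PLC/PRF/5.

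In a pooled KO screen each cell receives a gRNA that directs Cas9 to cut a gene. Cells that lose a gene they need to multiply fall behind and their gRNAs become rare, while gRNAs against a gene that restrains growth become common. The library covered protein complexes that place, remove or read histone marks, that move nucleosomes, or that attach ubiquitin to proteins. Cells in suspended spheroids lack attachment to a stiff surface, and many epithelial cells stop growing or die without it. The direct comparison asked which KOs were more or less frequent in spheroids than in monolayers at the end of the screen, whatever their frequency at the start.

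Each gene had 1 Score and 1 false discovery rate (FDR), both from MAGeCK's robust rank aggregation (RRA), which asks whether the gRNAs of a gene lie together near 1 end of the ranked list of all gRNAs. The Score is the RRA value on a -log10 scale, turned negative where the gRNAs were less abundant. It grows with the number of gRNAs that moved and with their ranks, and it does not give the size of a change in abundance. A gene was called at an FDR under 0.05, and "higher" and "lower" refer to 3D over 2D unless another comparison is named. No value per library was used here, so none of the Scores carries an SD, and depth was not examined.

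Positive Scores stood for gRNAs more abundant in spheroids. This direction was settled across genes, since the direct Score correlated with the difference between the 3D and the 2D Score over the initial libraries (Pearson's r = 0.879 and Spearman's rho = 0.814 over 737 genes). These comparisons share the final libraries, and genes are not independent replicates, so the correlation served only to read the sign.

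At the end of the screen, gRNAs against 52 genes (7.06%) were called higher in PLC/PRF/5 spheroids and gRNAs against 1 gene (0.136%) were called lower, and the other 684 genes were not called. The 3 highest Scores belonged to the ubiquitin-conjugating enzyme UBE2D3 (11.05), the ubiquitin ligase scaffold CUL3 (10.91) and SPOP, which brings substrates to CUL3 (10.72). They were followed by DPF2, a histone reader of SWI/SNF remodelers (8.22), the histone demethylase KDM1A, also known as LSD1 (7.95), and PAXIP1, a subunit of the KMT2C and KMT2D methyltransferase complexes (7.22). The gene called lower was MAP3K7, which encodes the stress and inflammatory kinase TAK1 (Score of -6.64, FDR = 0.010949).

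**Figure D1:**
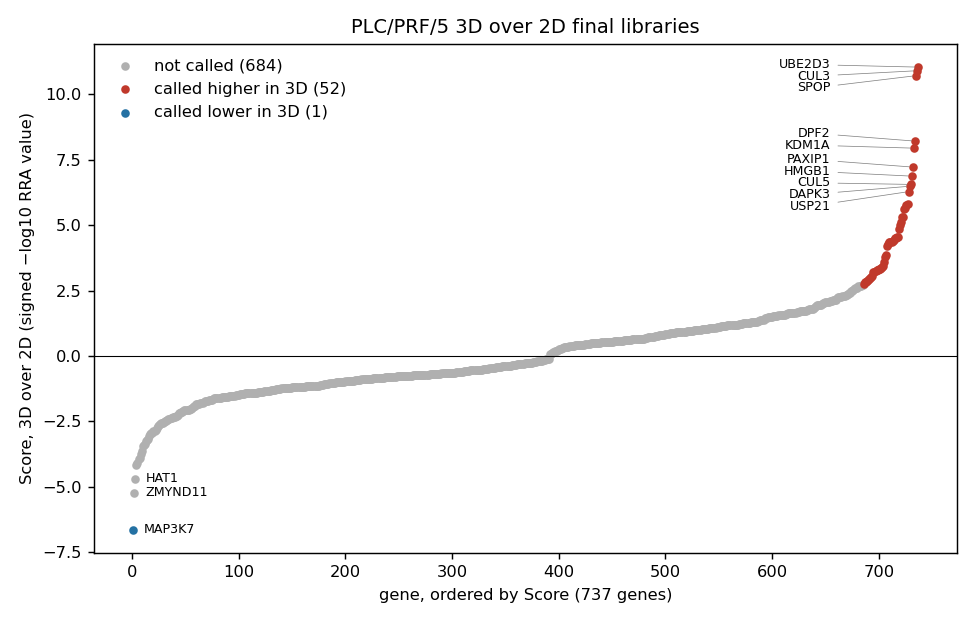
All 737 genes of the PLC/PRF/5 comparison ordered by Score (horizontal axis, rank; vertical axis, Score of 3D over 2D final libraries), with genes called at an FDR under 0.05 in colour. Between a flat middle and the right end the curve climbs from 2.77 to 11.05 over the 52 genes called higher, whereas at the left end only MAP3K7 at -6.64 is called.

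The median Score over all genes was -0.29, with quartiles of -1.05 and 1.14, and 346 genes (46.9%) had a Score above 0. The counts were alike near the middle of the distribution and unlike at its ends. A Score of at least 1 was found for 205 genes and a Score of -1 or less for 192 genes, whereas a Score of at least 5 was found for 18 genes and a Score of -5 or less for 2 genes.

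The FDR placed the limit at different sizes of Score in each direction, so the numbers of genes called higher and lower cannot be set against each other. In the higher direction the last genes inside the limit were ASXL1 (Score of 2.84, FDR = 0.039343), KEAP1 (2.82, FDR = 0.03943) and ZMYM2 (2.77, FDR = 0.042602). The first ones outside it were EYA2 and PPP4C (both 2.70, FDR = 0.058056) and JADE3 (2.68, FDR = 0.059372). In the lower direction ZMYND11 was not called at a Score of -5.22 (FDR = 0.082117). Had the Score of ZMYM2 served as the limit in both directions, 22 genes would have counted as lower.

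KOs of several ubiquitin ligase components were more frequent in spheroids. Ubiquitin passes from an E2 enzyme to a substrate held by a ligase, and in the cullin-RING ligases a cullin scaffold joins the E2 to an adaptor that picks the substrate. UBE2D3, a broadly used E2, had the highest Score of the comparison and lies at chr4:102794383-102868895 (GRCh38). Of the 8 E2 genes measured it was the only one called, beside 7.06% of all genes, and the median Score of the 8 was -0.75. Its close relative UBE2D1 had a Score of -1.34 (FDR = 1), and UBE2T, an E2 of DNA crosslink repair, had 2.55 (FDR = 0.076642).

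The 7 gRNAs against UBE2D3 are shown because the highest Score rests on them, and they cut coding exons 3 to 7 of the gene (hg38 coordinates of the 20 bases, exons of the MANE Select transcript, the 3 PAM bases in capitals).
UBE2D3 exon 3, chr4:102809810-102809829, plus strand: ctgcagaacattgtgctggaGGG
UBE2D3 exon 3, chr4:102809801-102809820, minus strand: atgttctgcaggtccagttgGGG
UBE2D3 exon 4, chr4:102809666-102809685, plus strand: acttacaggtcccataattgTGG
UBE2D3 exon 5, chr4:102802619-102802638, minus strand: aatgacagcccatatcaaggCGG
UBE2D3 exon 5, chr4:102802547-102802566, plus strand: gggaaaatacttgccttaggTGG
UBE2D3 exon 6, chr4:102801482-102801501, minus strand: tcgatattctaagatcacagTGG
UBE2D3 exon 7, chr4:102799432-102799451, plus strand: gtgcaatctctggcactaggGGG
Both exon 3 gRNAs also matched 2 further sites without a mismatch, in the processed pseudogenes UBE2D3P1 on chromosome 20 and UBE2D3P2, which lies within LRRFIP2 on chromosome 3. The exon 6 gRNA matched UBE2D3P2 as well, so 4 of the 7 had a single perfect site. gRNA sequences were at hand for 164 of the 737 genes (1135 gRNAs), and 18 of these gRNAs, in 4 genes, had more than 1 perfect site next to an NGG PAM. Besides UBE2D3 these genes were HMGB1, which was called, and E2F6 and H3F3A, which were not (Scores of -0.85 and -1.52). The part of the further sites in any Score was not tested.

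Of 13 cullin-RING ligase genes, 4 were called higher, beside 7.06% of all genes, and the median Score of the 13 was 0.71. CUL3 (chr2:224470150-224585363) is the scaffold that holds both SPOP (chr17:49598884-49678163) and KEAP1, an adaptor that directs the oxidative stress factor NRF2 to degradation. Their Scores were 10.91, 10.72 and 2.82. CUL5, the scaffold of another branch that works with SOCS box adaptors, had a Score of 6.56 (FDR = 0.000203). The list, chosen with earlier results of these data known, named only SPOP and KEAP1 as adaptors of CUL3. KEAP1 lay close to the limit (FDR = 0.03943).

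The other scaffolds and shared parts were not called. CUL1 had a Score of -1.37, CUL2 -0.62, CUL4A 1.10 and CUL4B 0.71. RBX1, the RING protein that most cullins share, had -0.53, and the adaptors SKP1, DDB1 and DDB2 had -0.78, 1.17 and -0.68. WSB2, a SOCS box protein, had the lowest Score of the list at -2.55 (FDR = 0.799878).

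Among 14 other ubiquitin ligases, 1 was called, about the 7.06% found over all genes. It was HUWE1, a very large ligase with many substrates (Score of 4.50, FDR = 0.001314), and the median of the 14 was -0.57. Among 17 deubiquitinases, which remove ubiquitin, USP21 (6.28, FDR = 0.000203) and USP7, which stabilises MDM2 and p53 among other proteins (3.61, FDR = 0.009843), were called, beside 7.06% of all genes. Of the 17 Scores, 12 lay above 0. None of the 4 genes of the SAGA deubiquitinase module was called, and all 4 had Scores below 0, from -2.85 for ATXN7L3 to -0.40 for USP22.

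KOs of the KMT2C and KMT2D branch of the COMPASS methyltransferases were called higher for 4 of 6 genes, beside 7.06% of all genes. This was the largest share of any list with at least 4 genes, but the lists were chosen with earlier results of these data known. The KMT2C/D complexes place methyl groups on histone H3 lysine 4, mainly at enhancers, whereas the SETD1 and menin-MLL1 branches act mainly at promoters. The 4 genes were PAXIP1 (Score of 7.22), the transcriptional coactivator NCOA6 (5.30), PAGR1, the partner of PAXIP1 (5.01), and the methyltransferase KMT2D itself (4.34), and the median of the 6 was 4.67. The paralog KMT2C had a Score of -0.91 (FDR = 1), and the histone demethylase KDM6A had 1.79 (FDR = 0.225321).

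The 7 gRNAs against PAXIP1 (chr7:154943690-155003411) are shown because it had the highest Score of this branch and each of them matched the genome once (PAM in capitals, exons of the MANE Select transcript).
PAXIP1 exon 5, chr7:154983306-154983325, minus strand: ctgaagacagaagtgccctgTGG
PAXIP1 exon 6, chr7:154976201-154976220, plus strand: tcttcataaataatcagacgAGG
PAXIP1 exon 6, chr7:154975756-154975775, minus strand: gtccagctgtacggacactgAGG
PAXIP1 exon 9, chr7:154963750-154963769, minus strand: tagataatccaggcacatggCGG
PAXIP1 exon 10, chr7:154962423-154962442, minus strand: agagatgtgttactgcacacTGG
PAXIP1 exon 12, chr7:154961017-154961036, minus strand: taccctgtgtcaacgcccagTGG
PAXIP1 exon 16, chr7:154954330-154954349, minus strand: tcgcaccgtgaagttcctgaCGG
The sites spread from exon 5 to exon 16 of the coding sequence. All 7 gRNAs against NCOA6 also had a single perfect site.

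The other COMPASS genes gave no call. WDR5, RBBP5, ASH2L and DPY30, which all branches share, had Scores of 1.22, -0.65, -0.99 and -0.37. In the menin-MLL1 list, MEN1 (menin) had -1.21, KMT2A (MLL1) -0.51, KMT2B -0.995 and PSIP1, a chromatin tether of menin, 0.87. In the SETD1 list the Scores ran from -1.33 for SETD1A to 1.06 for SETD1B. MEN1, KMT2A, KMT2B and ASH2L, and SETD1A, CXXC1 and WDR82 of the SETD1 list, were instead called lower in each culture over its initial libraries. So were 65.8% of all genes in 2D and 23.7% in 3D. WDR5, RBBP5, DPY30, PSIP1 and SETD1B were called lower in 2D only. ASH2L had -5.01 in 2D and -3.56 in 3D. The Score of MEN1 was -4.33 in 2D and -3.07 in 3D, and that of KMT2A was -4.77 in 2D and -4.60 in 3D, so gRNAs against them were depleted in monolayers and in spheroids. NFYB and NFYC, subunits of the promoter-binding factor NF-Y, had direct Scores of -0.67 and -0.75.

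KOs of the LSD1-CoREST corepressor were called higher for 4 of 14 genes (2 at an FDR under 0.01), beside 7.06% of all genes. In this complex KDM1A removes methyl groups from histone H3 lysine 4, RCOR1 (CoREST) joins it to nucleosomes, and HDAC1 and HDAC2 remove acetyl groups. KDM1A (chr1:23019468-23083689) had a Score of 7.95, RCOR1 5.30 (both FDR = 0.000203), the zinc finger protein ZNF217 3.04 (FDR = 0.025223) and ZMYM2 2.77 (FDR = 0.042602). The related RCOR3 had 0.93, HDAC1 -0.98, HDAC2 0.50, PHF21A -0.37 and the recruiting factors GFI1 and GFI1B -0.31 and -1.58. HMG20B, ZMYM3 and GSE1 lay between 0.75 and 1.32, and the median of the 14 was 0.88.

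Single further enzymes and readers linked to gene repression were called, among them 1 of 3 KDM5 and 1 of 4 NCoR genes, beside 7.06% of all genes. None of the 11 PRC2, 12 canonical PRC1, 17 core and variant PRC1 and 12 NuRD genes was called. KDM5A, a demethylase of trimethylated histone H3 lysine 4, had a Score of 5.65 (FDR = 0.000203), while its paralogs KDM5B and KDM5C had 0.90 and 0.89. HDAC3, the deacetylase of the NCoR complex, had 5.12 (FDR = 0.000203), while NCOR1 and TBL1XR1 had 1.63 and -1.13. PHF12, a subunit of SIN3, was the 1 of 15 SIN3 genes called higher (3.33, FDR = 0.015271), near the 7.06% of all genes. The scaffold paralogs SIN3A and SIN3B had -4.16 (FDR = 0.29562) and 2.59 (FDR = 0.070864). Neither paralog passed the test.

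Genes of histone H3 lysine 9 methylation, a mark of silent chromatin, were called higher for 3 of 11, beside 7.06% of all genes. EHMT1 and EHMT2, which form the dimethylating GLP and G9a enzyme pair, had Scores of 3.86 (FDR = 0.006004) and 3.22 (FDR = 0.016597). MPHOSPH8, a reader of this mark within the silencing complex HUSH, had 3.43 (FDR = 0.014277). SETDB1 had 2.40 (FDR = 0.096294), and the HP1 proteins CBX1, CBX3 and CBX5 had 1.56, 1.56 and 1.71. The 2 genes below 0 were SUV39H1 (-0.88) and SUV39H2 (-1.83), so 9 of 11 lay above 0, and the median was 1.56.

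**Figure D2:**
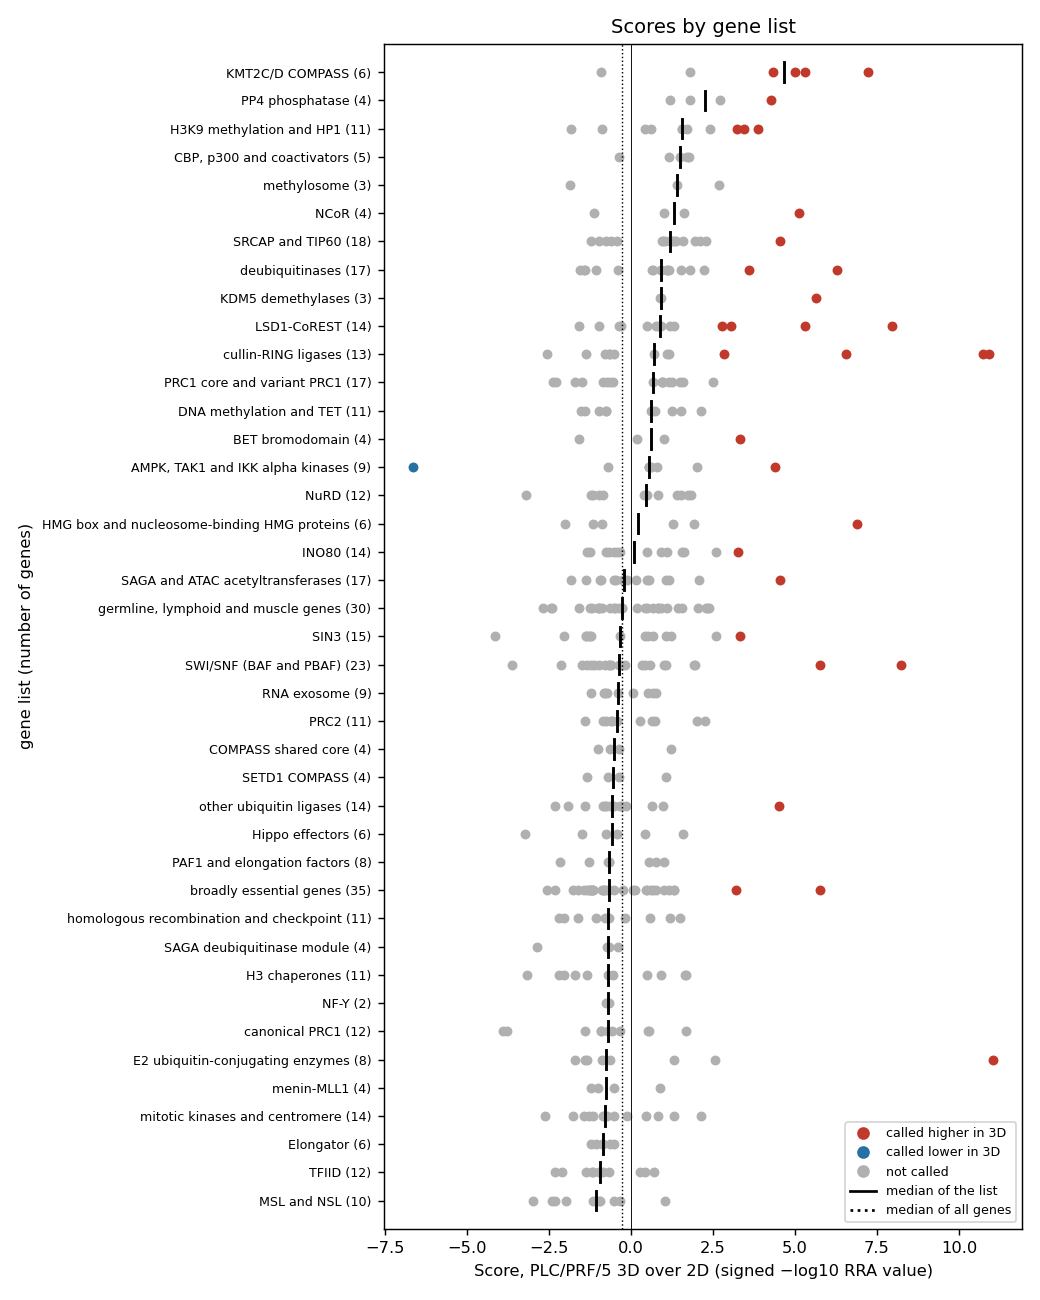
Scores of PLC/PRF/5 3D over 2D (horizontal axis) for the genes of 41 lists (vertical axis, number of genes in brackets), ordered by median, with called genes in colour, a black tick for each list's median and a dotted line for the median of all genes. The KMT2C/D COMPASS list has the highest median at 4.67, and 22 of the 41 lists hold grey points alone.

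In SWI/SNF remodelers 2 of 23 genes were called, close to the 7.06% of all genes, and the median was -0.36. DPF2 (chr11:65333852-65354262), a subunit of the canonical BAF form, had 8.22, and ACTB, which codes for the beta actin that cells use for the cytoskeleton and in remodelers, had 5.78 (both FDR = 0.000203). The catalytic subunit SMARCA4 had -2.13 and the core subunit SMARCC2 -3.63 (FDR = 0.384834), the lowest Score of the list.

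HMGB1, an abundant DNA-bending protein, had a Score of 6.88 (FDR = 0.000203), and the 5 HMGN genes listed with it lay between -2.02 and 1.93. Its 6 gRNAs are shown because 4 of them had more than 1 perfect site, in coding exons 2 to 4 and in copies elsewhere (PAM in capitals, exons of the MANE Select transcript).
HMGB1 exon 2, chr13:30463533-30463552, minus strand, 2 sites: gaagtgctcagagaggtggaAGG
HMGB1 exon 3, chr13:30463301-30463320, minus strand, 1 site: agatatggcaaaagcggacaAGG
HMGB1 exon 3, chr13:30463256-30463275, minus strand, 5 sites: aacctatatccctcccaaagGGG
HMGB1 exon 3, chr13:30463197-30463216, plus strand, 1 site: agatactcacggaggcctctTGG
HMGB1 exon 4, chr13:30462685-30462704, plus strand, 3 sites: ctcagagcagaagaggaagaAGG
HMGB1 exon 4, chr13:30462623-30462642, minus strand, 5 sites: ggtgatgttgcgaagaaactGGG
The further sites lay in 6 HMGB1 copies annotated as HMGB1P1, HMGB1P4, HMGB1P5, HMGB1P6, HMGB1P10 and HMGB1P40. The part of cutting at these sites was not tested.

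The remaining lists with a called gene held 1 or 2 each. In PP4, a phosphatase of DNA damage signalling, 1 of 4 genes was called, beside 7.06% of all genes. It was the regulatory subunit PPP4R2 (4.27, FDR = 0.001636). The catalytic subunit PPP4C (2.70) lay just outside the limit, and SMEK1 and SMEK2 had 1.79 and 1.18, so all 4 genes lay above 0 and the median was 2.25. TRRAP, a scaffold shared by the SAGA and TIP60 acetyltransferases, had 4.55 (FDR = 0.001161). It was the only gene called among 17 of SAGA and ATAC and among 18 of SRCAP and TIP60, both near the 7.06% of all genes. The median of the SRCAP and TIP60 list was 1.19, with 13 of 18 above 0. TFPT was the only gene called among 14 of INO80 (3.26, FDR = 0.015934), again near the share of all genes. BRD2 was the only one called among 4 BET bromodomain proteins (3.32, FDR = 0.015271), beside 7.06% of all genes.

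The list of metabolic and stress kinases held genes at both ends. Of its 9 genes, 1 was called higher and 1 lower, beside 7.06% and 0.136% of all genes. PRKAA1, the catalytic alpha 1 subunit of the energy sensor AMPK, was called higher (4.39, FDR = 0.001314), and the 6 other AMPK subunits lay between -0.71 for PRKAG1 and 2.01 for PRKAG3. MAP3K7 (chr6:90513579-90587072) was called lower, and CHUK, the IKK alpha kinase of NF-kappa B signalling, had 0.61 (FDR = 0.960799). Over the initial libraries MAP3K7 had a Score of 0.22 in 2D (FDR = 1) and of -5.66 in 3D (FDR = 0.000135), so its gRNAs were called depleted in spheroids and not in monolayers, beside 23.7% of all genes called lower in spheroids. In HLF spheroids over monolayers MAP3K7 had a Score of 0.60 (FDR = 0.532937), so it was not called there, and the difference between lines was not tested.

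The 10 lowest Scores outside the limit ranged from -5.22 to -3.41 and had FDRs from 0.082117 to 0.44556. The lowest was that of ZMYND11, a reader of histone H3.3, with 3.73 in 2D (FDR = 1) and -1.38 in 3D (FDR = 0.053783) over the initial libraries. HAT1, a histone acetyltransferase of new histones, had -4.70 directly, 2.00 in 2D and -1.93 in 3D. BMI1 and CBX8, both of canonical PRC1, had -3.90 and -3.77 directly, and each lay above 0 in 2D (1.99 and 1.11) and below 0 in 3D (-2.00 and -3.15). ATAD2 and BAZ1B had -3.43 and -3.41 directly, and their 2D Scores were 3.08 and 3.00. The direct and 2D Scores share the 2D Final libraries, so genes chosen for low direct Scores lean to high 2D Scores. The positive 2D Scores given here are therefore no separate evidence. Over all genes, 488 had a 2D Score below 0, and none was called higher in 2D over the initial libraries. SIN3A (-4.16) and SMARCC2 (-3.63) had 3D Scores of -6.01 and -3.86, and GLYR1 and DDX50 had direct Scores of -4.10 and -3.94. YAP1, the effector of the Hippo pathway, came close behind with -3.23 (FDR = 0.500782).

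A list of 35 genes that most cell lines need served as a reference. Of these, 2 were called higher, namely ACTB and PPP2CA, the catalytic subunit of the phosphatase PP2A (3.20, FDR = 0.01706), close to the share among all genes, and the median was -0.68. Of 30 germline, lymphoid and muscle genes, which a liver cell line should not use, none was called, beside 7.06% of all genes called higher. Their median was -0.28, beside -0.29 for all genes, with a range from -2.70 to 2.39.

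Of the 41 lists, 22 held no called gene. Among the larger of these, the median was -0.95 over 12 TFIID genes, -0.44 over 11 PRC2 genes, -0.71 over 12 canonical PRC1 genes, 0.68 over 17 core and variant PRC1 genes and 0.44 over 12 NuRD genes. All 6 Elongator genes lay between -1.22 and -0.52, and 9 of 10 MSL and NSL genes lay below 0, with MSL1 lowest at -2.97. WDR77, a partner of the arginine methyltransferase PRMT5, had 2.68 (FDR = 0.059372). TET2, a DNA demethylating enzyme, had 2.13, and UHRF1, which maintains DNA methylation, had -1.41. The 2 coactivators CREBBP and EP300 had 1.77 and 1.72. None of these single values passed the test.

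Of the 52 genes called higher, 31 were in a list and 21 in none. Among the latter were DAPK3, a kinase of myosin and cell death (6.49), YWHAE, a 14-3-3 adaptor (5.83), and NIPBL, which loads cohesin onto DNA (5.61, all FDR = 0.000203). POGZ (4.84, FDR = 0.000576) and ADNP (4.42, FDR = 0.001314) are zinc finger proteins that associate with heterochromatin. H2AFZ codes for the histone variant H2A.Z (4.55, FDR = 0.001161), and CHD6 for a chromatin remodeler (4.52, FDR = 0.001161).

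The 52 genes came to their direct Scores from different positions in each culture. Over the initial libraries their 2D Scores ran from -5.58 to 2.76 with a median of -1.54, beside -0.57 for all genes, and their 3D Scores from 0.92 to 10.79 with a median of 3.68, beside -0.51 for all genes. These comparisons share the final libraries with the direct one, so the values stand side by side and are no separate evidence. All 52 had a 3D Score above 0, whereas 429 of the 737 genes had one below 0. Of the 52, 17 were called higher in 3D over the initial libraries, where 2.31% of all genes were called. In 2D, 43 of the 52 were called lower. This count says little beyond the sign, because 485 of the 488 genes with a 2D Score below 0 were called lower (65.8% of all genes), from a Score of -0.09 on.

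The 2D Scores of the genes called higher ranged widely, and so did their 3D Scores. TRRAP had -4.34 in 2D and 0.98 in 3D, and KMT2D had -5.10 and 1.62. EHMT2 had -3.03 and 1.28, and USP7 had -1.41 and 0.92. None of these 4 was called in 3D over the initial libraries, and all 4 were called lower in 2D. HDAC3 (-5.58 in 2D and 3.69 in 3D) and ACTB (-3.90 and 3.46) had large Scores on both sides, although neither was called in 3D (FDR = 0.102316 and 0.151967).

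For other genes the 3D Score was the larger in size. KDM5A had 0.23 in 2D and 6.64 in 3D, DAPK3 0.35 and 7.64, and PRKAA1 0.54 and 5.01, all 3 called in 3D. No gene with a 2D Score above 0 was called over the initial libraries. The missing 2D call of these 3 genes therefore follows from the sign alone. SPOP (-1.66 and 10.79), CUL3 (-1.53 and 9.04), KDM1A (-1.15 and 7.80) and CUL5 (-1.10 and 5.78) were called lower in 2D and higher in 3D over the initial libraries. KEAP1 stood apart with 2.76 in 2D, where this sign was never called, and 2.61 in 3D, not called. Its direct Score of 2.82 thus had no counterpart in the difference of the 2 cultures.

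**Figure D3:**
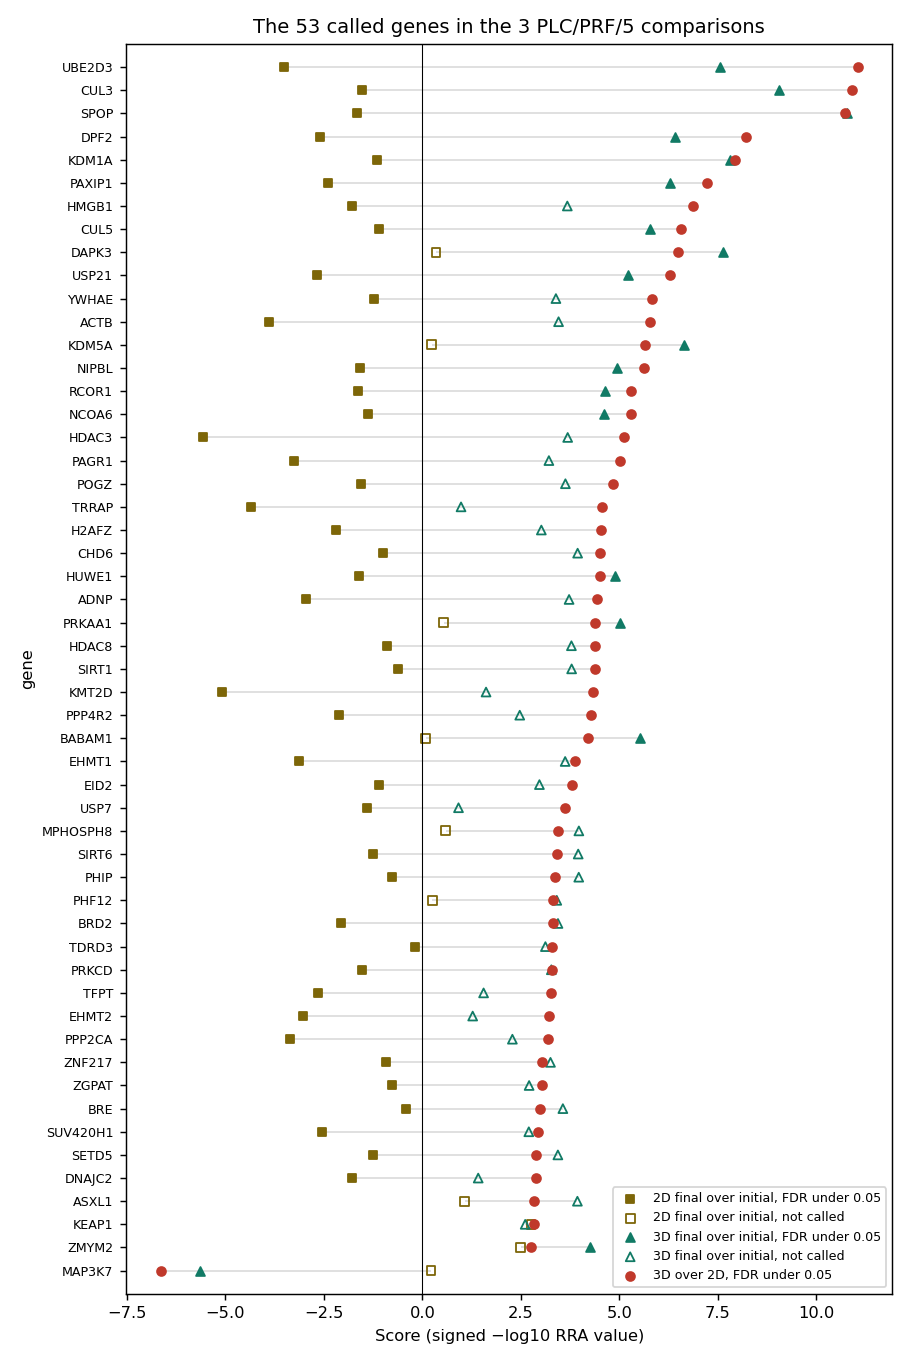
Scores of the 53 called genes (vertical axis) in 3 PLC/PRF/5 comparisons (horizontal axis, Score): 3D over 2D (circles), 2D final over initial (squares) and 3D final over initial (triangles), with filled symbols for an FDR under 0.05. The triangles of all 52 genes called higher lie right of 0, whereas the squares range from -5.58 for HDAC3 to 2.76 for KEAP1, and MAP3K7 at the bottom has its circle and triangle left of 0.

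The share of genes called higher differed between chromosomes. On chromosome 20, 6 of 22 genes (27.3%) were called (NCOA6, CHD6, ADNP, ZNF217, ZGPAT and ASXL1), and on chromosome 13, 4 of 14 (28.6%, HMGB1, MPHOSPH8, TDRD3 and ZMYM2). The median Score was 1.11 on chromosome 20 and 1.01 on chromosome 13, and on the 21 other chromosomes with at least 9 genes it lay between -1.05 and 0.65. For 3D over the initial libraries the medians were 1.39 on chromosome 20 and 1.04 on chromosome 13, and in HLF 3D over 2D they were 0.68 and 1.48, beside 0.40 for all genes. Share and median did not go together on every chromosome. On chromosome 5, 4 of 23 genes (17.4%) were called at a median Score of -0.78, on chromosome 7, 4 of 30 (13.3%) at -0.52, and on chromosome 19, 6 of 41 (14.6%) at 0.61. Chromosomes 13 and 20 were singled out after their values were seen. Without them, 42 of 701 genes (5.99%) were called higher. The part of chromosomal position in the Scores of the 10 genes named here was not tested.

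In HLF, with libraries and a cell line of its own, 90 of 737 genes (12.2%) were called higher in 3D over 2D. Of the 52 PLC/PRF/5 genes, 33 were also called in HLF, which is 63.5% of the PLC/PRF/5 list and 36.7% of the HLF list. Across all genes the Scores of the 2 lines had Pearson's r = 0.457 and Spearman's rho = 0.315, and both used the same gRNA library.

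The shared genes included the E2, the cullins and the demethylases. In HLF, CUL3 had a Score of 13.50, CUL5 7.90, UBE2D3 7.13, HDAC3 6.32 and KDM1A 5.44 (all FDR = 0.000203). SPOP, DPF2, PAXIP1 and HMGB1 were called in HLF with smaller Scores of 2.90, 2.86, 2.87 and 2.75. PPP4R2 (5.98), PHF12 (5.42), USP7 (5.14), KEAP1 (4.59) and BRD2 (8.13) had larger Scores in HLF than in PLC/PRF/5. A Score depends on the ranks within its own comparison, and differences of Scores between lines were not tested.

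The other 19 genes were not called in HLF. Among them were DAPK3 (6.49 in PLC/PRF/5 and 1.32 in HLF), USP21 (6.28 and 1.85), RCOR1 (5.30 and 1.63), NCOA6 (5.30 and 0.80), PAGR1 (5.01 and 1.25) and PRKAA1 (4.39 and 0.12). Thus PAXIP1 and KMT2D were called in both lines, and NCOA6 and PAGR1 in PLC/PRF/5 alone at this threshold. For 4 of the 19 the HLF Score was below 0, namely SIRT1 (-1.52), TFPT (-0.66), BRE (-0.58) and ZGPAT (-0.21). In the other direction 57 genes called in HLF were not called in PLC/PRF/5, among them PPP4C (8.01 in HLF, 2.70 in PLC/PRF/5) and the acetyltransferase KAT5 (5.78 and 0.94). The SRCAP and TIP60 list of 18 genes had 8 called in HLF and 1 in PLC/PRF/5, beside 12.2% and 7.06% of all genes.

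**Figure D4:**
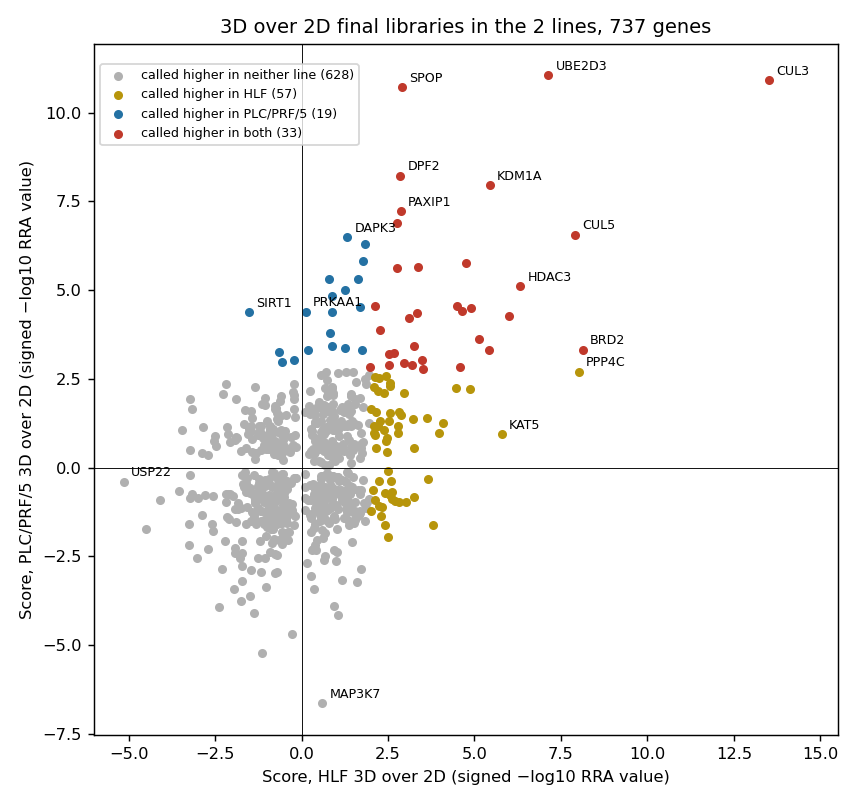
Scores of 3D over 2D final libraries in HLF (horizontal axis) and PLC/PRF/5 (vertical axis) for 737 genes, coloured by the line in which each was called higher at an FDR under 0.05. The 33 genes called in both lie in the upper right with CUL3 at 13.50 and 10.91, and MAP3K7, the gene called lower in PLC/PRF/5, lies at 0.60 in HLF.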

How the data were processed

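Per the labels, the authors counted gRNAs and compared groups with MAGeCK RRA, non-targeting gRNAs serving as controls. MAGeCK's version is not given in the sources used here, nor is the build on which gRNAs were designed. The deposited table holds a Score and an FDR (a p-value adjusted by MAGeCK over genes) for each of 737 genes in 9 comparisons, of which 4 enter the text. The deposited Scores and FDRs are the authors' own comparisons, and they were used because no other measurement was analysed here. Taken as -log10 of the RRA value, each Score gave a value of 5 significant digits for 737 of 737 genes, within a relative tolerance of 1e-07. No counts entered here, although the paper states that it provides counts per gene. Library depth and replicate spread were therefore not examined, and no model was refitted.

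Genes were called at the deposited FDR under 0.05 by the sign of the Score. The counting of calls was tested on simulated data. Members, 41 gene lists (410 genes, textbook complexes), the rule for named genes and the alternatives were chosen with earlier results of these data known. The rule named the 25 highest called genes, every gene called lower, the 10 lowest not called, the 3 nearest the threshold on each side, genes called in both lines, called members of each list (for lists with none, up to 3 with the largest Scores in size) and all members of 10 short lists. YWHAE, POGZ, H2AFZ, CHD6 and DAPK3 came in by their rank. TET2, UHRF1, SMARCA4, the HP1 genes, paralogs, list ends and the HLF genes PPP4C and KAT5 outside this rule were named after their values were seen. Single values of some list members are not reported here. Symbols are as deposited, and 732 of them matched a current RefSeq symbol, 26 through an older one. BRE is now BABAM2, H2AFZ is H2AZ1, and SMEK1 and SMEK2 are PPP4R3A and PPP4R3B. Gene positions are RefSeq's for GRCh38.p14, a build that may differ from the one used for design.

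gRNA sequences came from the study's library table, held here in part. Each 20-base sequence followed by NGG was searched on both strands of hg38 without mismatches, with exons from GENCODE v44. Python 3.11.15, pandas 2.3.3, numpy 2.4.6 and scipy 1.17.1 were used.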

Additional observations from a re-analysis of the deposited data

How the results depend on the processing

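No paired analysis was possible because the table holds 1 value per gene and comparison, and for the same reason no replicate could be left out. The 52 genes called higher numbered 33 at an FDR under 0.01, 66 at an FDR under 0.1 and 45 at a Score of at least 3 without the FDR. The 1 gene called lower became 0 at an FDR under 0.01 (MAGeCK, unadjusted p-values not used here), 2 at 0.1, 16 at a Score of -3 or less and, in an alternative chosen after seeing the data, 22 at the size of the smallest Score called higher. The 33 genes called in both lines became 14 at an FDR under 0.01, 46 at 0.1 and 18 at a Score of at least 3. With the 3D minus the 2D Score over the initial libraries in place of the direct Score, KEAP1 went from 2.82 to -0.15, 13 genes that were not called changed sign, and 99 of 113 named genes kept theirs. Subtracting the median of all genes changed no sign among the 113. Of 82 list counts, 75 stayed within 1.5 times at an FDR under 0.01, 75 at 0.1 and 76 at a Score of at least 3 in size. LSD1-CoREST had 2 genes called at an FDR under 0.01, in place of 4. The causes of these shifts were not tested. No depth or values per library were used, so neither counting error nor the weight of any 1 library was measured.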

Other observations

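Some groups of genes outside the lists of the report were put together after their values were seen, and their values are given as a description. Of 6 genes of the BRCA1-A and BRISC complexes, which cut ubiquitin chains of a particular linkage, 2 were called higher in PLC/PRF/5 spheroids. They were the scaffold BABAM1 (Score of 4.22, FDR = 0.001825) and BRE (2.98, FDR = 0.029276), beside 7.06% of all genes called. The catalytic subunit BRCC3 had 1.53 and FAM175B, the subunit found in BRISC, had 1.66. FAM175A and UIMC1, the subunits found in BRCA1-A, had -1.29 and -1.04. Over the initial libraries BABAM1 had a Score of 0.08 in 2D and 5.53 in 3D (FDR = 0.002555).

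The 4 sirtuins examined, deacylases that depend on NAD, had Scores above 0, beside 46.9% of all genes. SIRT1 (4.37, FDR = 0.001434) and SIRT6 (3.41, FDR = 0.014286) were called higher, beside 7.06% of all genes, and SIRT2 and SIRT7 had 0.79 and 0.52. HDAC8, a deacetylase of cohesin, was also called (4.37, FDR = 0.001434), as was the cohesin loader NIPBL. Of 3 14-3-3 genes, YWHAE had 5.83, and YWHAB and YWHAZ had -0.38 and -1.16. Of 10 CHD remodelers, CHD6 had 4.52, and the other 9 lay between -1.30 and 1.05.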
